A study of Mus musculus with 18 samples.

Results

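The 6 genes described here encode immunoglobulin chains measured in the dorsal root ganglia of mice with an implanted myeloma: the heavy chain constant genes Ighg2b and Ighm, the heavy chain variable gene Ighv1-54, the kappa constant gene Igkc, the kappa variable gene Igkv10-96, and Jchain. They are 6 of 48529 genes in the table, which holds 235 immunoglobulin constant and variable genes without pseudogenes. They were listed by symbol, and their levels in myeloma and sham ganglia were known when the list was made, so those levels are given as a description, with no test. Both groups were male C57BL/KaLwRijHsd mice aged 5-7 weeks. Mice of the MM group (n = 9) received cells of the GFP-tagged myeloma line 5TGM1 inside the femur, and mice of the SHAM group (n = 9) received vehicle by the same route. Whole ganglia of lumbar levels 2, 3 and 4 on the injected side were collected on post-surgical day 24, and total RNA of each mouse gave 1 library. All tumour RNA therefore stems from a single transplanted line, and whole ganglia hold neurons, glia, vessels and blood in unknown shares.

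An antibody consists of a pair of heavy and a pair of light chains. Each B cell joins a single heavy variable gene and a single light variable gene to their constant genes, and all descendants of that cell keep the choice, so a plasma cell tumour makes a single antibody. 5TGM1 is known for secreting an antibody of the IgG2b class with a kappa light chain. Heavy chain transcripts end in either of 2 ways: a secreted form closes with a short tail, and a membrane form continues through exons that anchor the chain in the B cell surface. The J chain protein links IgM and IgA units into larger complexes.

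The sequences below are shown because the share of reads given to a single variable gene, and the split between secreted and membrane forms, rest on them. They are reference transcripts of GENCODE M21 (build GRCm38), written 5′ to 3′, and not the rearranged, mutated copies of the tumour. In the variable genes, which lack the first 11 bases of their main exon here, capitals mark bases that lie in no stretch of 31 bases shared with a transcript of another gene. In the constant genes, lower case gives the last 30 bases before the splice site that leads to the membrane exons, and capitals run from there to the stop codon; in Ighg2b the first capital is still the same base in both forms.
Ighv1-54: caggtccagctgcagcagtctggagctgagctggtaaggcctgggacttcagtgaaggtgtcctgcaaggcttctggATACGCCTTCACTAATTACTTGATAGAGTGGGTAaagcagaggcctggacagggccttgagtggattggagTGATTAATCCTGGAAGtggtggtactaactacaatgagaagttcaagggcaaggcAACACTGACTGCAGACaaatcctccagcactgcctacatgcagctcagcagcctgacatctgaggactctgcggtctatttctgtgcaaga
Igkv10-96: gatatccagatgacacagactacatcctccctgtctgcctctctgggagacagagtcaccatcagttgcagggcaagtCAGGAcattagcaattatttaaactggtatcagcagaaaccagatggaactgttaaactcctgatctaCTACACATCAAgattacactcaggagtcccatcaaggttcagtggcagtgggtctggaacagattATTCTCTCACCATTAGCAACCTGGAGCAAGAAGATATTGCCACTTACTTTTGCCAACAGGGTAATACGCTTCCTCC
Ighg2b secreted: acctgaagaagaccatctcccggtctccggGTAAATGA
Ighg2b membrane: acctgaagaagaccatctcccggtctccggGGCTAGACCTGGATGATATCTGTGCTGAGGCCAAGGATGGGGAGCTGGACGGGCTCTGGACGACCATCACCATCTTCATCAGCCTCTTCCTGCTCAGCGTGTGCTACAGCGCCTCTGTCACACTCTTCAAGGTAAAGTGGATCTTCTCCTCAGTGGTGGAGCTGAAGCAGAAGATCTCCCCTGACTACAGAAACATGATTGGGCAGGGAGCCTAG
Ighm secreted: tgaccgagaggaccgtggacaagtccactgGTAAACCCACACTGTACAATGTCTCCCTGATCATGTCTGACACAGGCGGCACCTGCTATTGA
Ighm membrane: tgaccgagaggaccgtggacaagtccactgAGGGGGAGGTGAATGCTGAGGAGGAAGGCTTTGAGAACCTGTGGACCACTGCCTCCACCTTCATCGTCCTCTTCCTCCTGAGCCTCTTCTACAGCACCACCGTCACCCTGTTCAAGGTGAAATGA

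In Ighv1-54, 66 of 294 printed bases (22.4%) were capitals, and 29 of the other heavy variable genes shared at least 1 stretch of 31 bases with it. In Igkv10-96, 92 of 287 printed bases (32.1%) were capitals, and 5 other kappa variable genes shared such stretches. The closest relative was Igkv10-94, with 148 of the 329 stretches, against at most 36 of 347 for Ighv1-54, which Ighv1-63 held. Counted as stretches, 91 of the 347 in Ighv1-54 and 158 of the 329 in Igkv10-96 were shared with another gene. A base is lower case if any 1 stretch over it is shared, so capitals understate the distinct part. Reads from the lower-case parts can be divided between relatives by the estimate. After the splice site the coding sequence runs on for 8 bases in the secreted and 215 in the membrane form of Ighg2b, and for 62 and 125 bases in those of Ighm.

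Libraries held between 19014161 and 21538262 estimated reads in genes. The 8 sensory neuron markers checked (Tubb3, Prph, Nefh, Scn10a, Calca, Avil, Isl1 and Pou4f1) were all at or above 42.2 CPM in every library. None passed the test between groups, Scn10a narrowly (log2 fold change -0.27, edgeR adjusted p = 0.0535). Their sum ran from 5011 to 9884 CPM in MM and from 7556 to 9522 CPM in SHAM. The lowest MM library thus lay below every SHAM library, so neuronal signal was not equal throughout. CPM is a read count after scaling to a common library size, and TPM also divides by transcript length. In the comparison of MM with SHAM over 15774 genes, 433 genes were higher in MM, which is 2.75% of those tested, and 38 were lower, which is 0.241%. All 6 members were among the genes tested, and 5 of them were higher by this test; the members were chosen from this contrast, so nothing is read from that count against the 2.75%. Summed over the 6 genes, members took 1.03% of all reads in MM9, 0.603% in MM8 and 0.53% in MM5, but at most 0.0927% in the remaining MM libraries and between 0.00373% and 0.0106% in SHAM.

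Ighg2b, which encodes the constant part of IgG2b heavy chains on chromosome 12, had the highest mean CPM of the 6 in MM. It stood there at 4374 CPM in MM9, 2334 in MM8, 2197 in MM5, 390 in MM4, 389 in MM3, 353 in MM1, 253 in MM6, 104 in MM7 and 11.7 in MM2. In SHAM it stood at 16.4 CPM in SHAM9, 14.8 in SHAM5, 2.83 in SHAM4, 1.65 in SHAM1, 1.10 in SHAM7 and under 0.5 in the other 4. The MM libraries thus fell into 3 high ones, 5 intermediate ones and MM2, and 8 of 9 lay above every SHAM library, while MM2 lay below SHAM5 and SHAM9. Among all genes tested, 0.856% had 8 or more MM libraries above every SHAM library. Means were 1156 ± 1495 CPM in MM against 4.20 ± 6.52 CPM in SHAM (± SD, n = 9 each), a ratio of 275. The SD exceeded the mean in both groups. In whole ganglia, fewer tumour cells and less RNA per cell cannot be told apart.

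Ighv1-54, a heavy variable gene on the same chromosome, ranged in MM from 2.73 CPM in MM2 to 1054 CPM in MM9, with a median of 71.3 CPM. In SHAM it was at 0 in SHAM2, SHAM6 and SHAM8, had a median of 0.0502 CPM and reached 4.15 CPM in SHAM9 and 3.14 CPM in SHAM5. A count of 0 allows up to 3 counts, or between 0.140 and 0.160 CPM in these libraries, and SHAM values other than those of SHAM1, SHAM5 and SHAM9 lay at 3 reads or fewer. Again 8 MM libraries lay above every SHAM library and MM2 lay below SHAM5 and SHAM9. Means were 259 ± 354 CPM in MM against 0.885 ± 1.59 CPM in SHAM (± SD, n = 9 each), a ratio of 293.

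Igkc, the constant region of all kappa light chains on chromosome 6, ranged in MM from 11.8 CPM in MM2 to 3345 CPM in MM9, with a median of 338 CPM. In SHAM the lowest value was 1.60 CPM in SHAM2, the median 3.18 CPM and the highest 14.9 CPM in SHAM5, next to 14.8 CPM in SHAM9. Igkc had reads in every SHAM library, unlike the variable genes, and MM2 again lay below SHAM5 and SHAM9. Means were 963 ± 1194 CPM in MM against 5.96 ± 5.22 CPM in SHAM (± SD, n = 9 each), a ratio of 162. Igkv10-96, the kappa variable gene on the same chromosome, ranged in MM from 3.54 CPM in MM2 to 1301 CPM in MM9, with a median of 87.4 CPM. In SHAM it was at 0 in SHAM2, SHAM7 and SHAM8, had a median of 0.0488 CPM and reached 5.98 CPM in SHAM9 and 3.53 CPM in SHAM5. Its overlap was close to that of the heavy chain genes, except at SHAM5. MM2 alone of the MM libraries lay below SHAM9, but it barely exceeded SHAM5 instead of lying below it. Means were 342 ± 457 CPM in MM against 1.15 ± 2.14 CPM in SHAM (± SD, n = 9 each), a ratio of 298.

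Ighm, the constant region of IgM, did not share that pattern. It lay between 29.7 CPM in MM7 and 80.3 CPM in MM9 in MM, with a median of 38.2 CPM, and between 31.7 CPM in SHAM1 and 111 CPM in SHAM8 in SHAM, with a median of 37.7 CPM. No MM library exceeded the highest SHAM library, and 5 of 9 exceeded the SHAM median. Means were 45.4 ± 16.6 CPM in MM against 46.5 ± 24.8 CPM in SHAM (± SD, n = 9 each), a log2 ratio of -0.03, or 0.24 without SHAM8. MM9, MM5 and MM8 were the highest MM libraries for Ighm too, at 80.3, 59.0 and 55.8 CPM. The name under which the 6 genes were grouped, chains of the myeloma clone, is thus not borne out for Ighm by these values.

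Jchain, on chromosome 5 and outside the immunoglobulin loci, had the lowest mean of the 6 in both groups. In MM it ranged from 0.542 CPM in MM1 to 12.2 CPM in MM5, with a median of 2.22 CPM. In SHAM it ranged from 0.207 CPM in SHAM9 to 0.904 CPM in SHAM3, with a median of 0.439 CPM. Its order differed from that of Ighg2b: MM5 stood first, MM9 was at 8.23 CPM and MM8 at 4.85 CPM, and MM1, with 353 CPM of Ighg2b, was the lowest of all MM libraries. SHAM5 and SHAM9, the SHAM libraries with the most Ighg2b, were among the lowest in Jchain, at 0.233 and 0.207 CPM. Means were 3.96 ± 3.90 CPM in MM against 0.476 ± 0.255 CPM in SHAM (± SD, n = 9 each), and 7 of 9 MM libraries lay above every SHAM library. The log2 ratio of these means was 3.05, and 1.86 without MM5, MM8 and MM9. SHAM libraries held between 4 and 18 reads, so counting error is large there. A transcript that keeps an intron took all 8 reads in SHAM2 and all 4 in SHAM9, whereas in MM5 the coding transcript took 246 of 261.

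**Figure D1:**
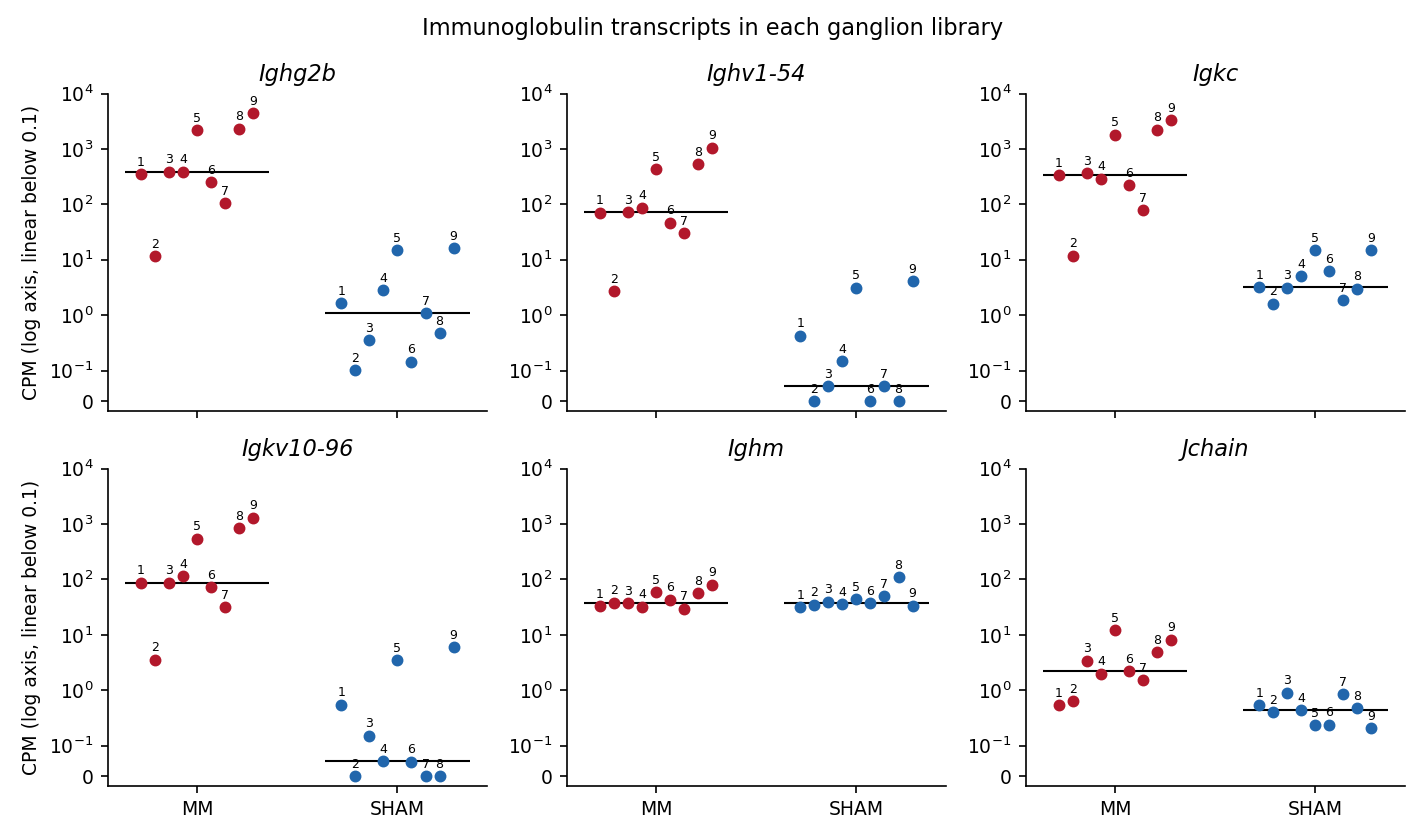
CPM of the 6 immunoglobulin genes (log axis, linear below 0.1) in each of 9 MM and 9 SHAM libraries, with library numbers above the points and group medians as bars. In Ighg2b, Ighv1-54, Igkc and Igkv10-96 the points MM5, MM8 and MM9 lie highest and MM2 lies near SHAM5 and SHAM9. The Ighm points of both groups overlap between 31.7 and 80.3 CPM, with MM7 below that range and SHAM8 above it at 111 CPM.

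Per length, the order of the members was the same in 8 of 9 MM libraries: Igkc, Igkv10-96, Ighv1-54, Ighg2b, Ighm, Jchain. In MM9 the levels in that order were 19631, 18104, 13055, 7551, 93.2 and 10.5 TPM. In MM2 Ighm, at 51.9 TPM, took the third place behind Igkc at 79.6 TPM and Igkv10-96 at 55.7 TPM. In 7 of 9 SHAM libraries Ighm came first, at between 42.5 and 121 TPM, and in SHAM5 and SHAM9 Igkc came first, at 105.97 and 99.99 TPM. The order among the short genes leans on length corrections. The effective length, which is the part of a transcript a read fragment can start in, was put at 103 to 112 bases for Igkv10-96 and 116 to 126 for Ighv1-54, whose transcripts have 359 and 377 bases.

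Within MM libraries the 4 genes of the IgG2b kappa antibody kept nearly fixed proportions. The TPM ratio of Igkc to Ighg2b lay between 2.50 and 3.44 (median 2.89), although Ighg2b CPM itself ranged 375-fold. The ratio of Ighv1-54 to Ighg2b lay between 1.31 and 1.99, that of Igkv10-96 to Igkc between 0.564 and 0.922, and that of Igkv10-96 to Ighv1-54 between 1.15 and 1.75. The highest ratio exceeded the lowest by 1.38-fold, 1.52-fold, 1.63-fold and 1.51-fold in that order. Jchain was less regular: as a percentage of Ighg2b TPM it ran from 0.101% in MM1 to 3.92% in MM2, a range of 39.0-fold. For Ighm over Ighg2b the range was 181-fold, from 0.0123 in MM9 to 2.24 in MM2.

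In SHAM5 the ratio of Igkc to Ighg2b was 3.48 and in SHAM9 it was 3.01. The ratio of Ighv1-54 to Ighg2b was 1.56 in SHAM5 and 1.74 in SHAM9, both inside the MM range, and that of Igkv10-96 to Igkc was 0.566 and 0.934. In these 2 SHAM libraries the antibody genes therefore stood in about the proportions of the MM libraries. In the other 7 the ratio of Igkc to Ighg2b was 5.56 or higher, up to 214 in SHAM6, where Ighg2b had 3 reads. SHAM1 resembled MM in its ratio of Ighv1-54 to Ighg2b, at 1.85, on 8 and 31 reads. Where the reads in SHAM5 and SHAM9 came from was not tested. Without both libraries the log2 ratio of MM to SHAM means was 10.25 for Ighg2b (8.10 with them), 11.40 for Ighv1-54 (8.19), 8.13 for Igkc (7.34) and 11.56 for Igkv10-96 (8.22). Without MM5, MM8 and MM9 these log2 ratios were 5.90, 5.86, 5.19 and 5.85.

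**Figure D2:**
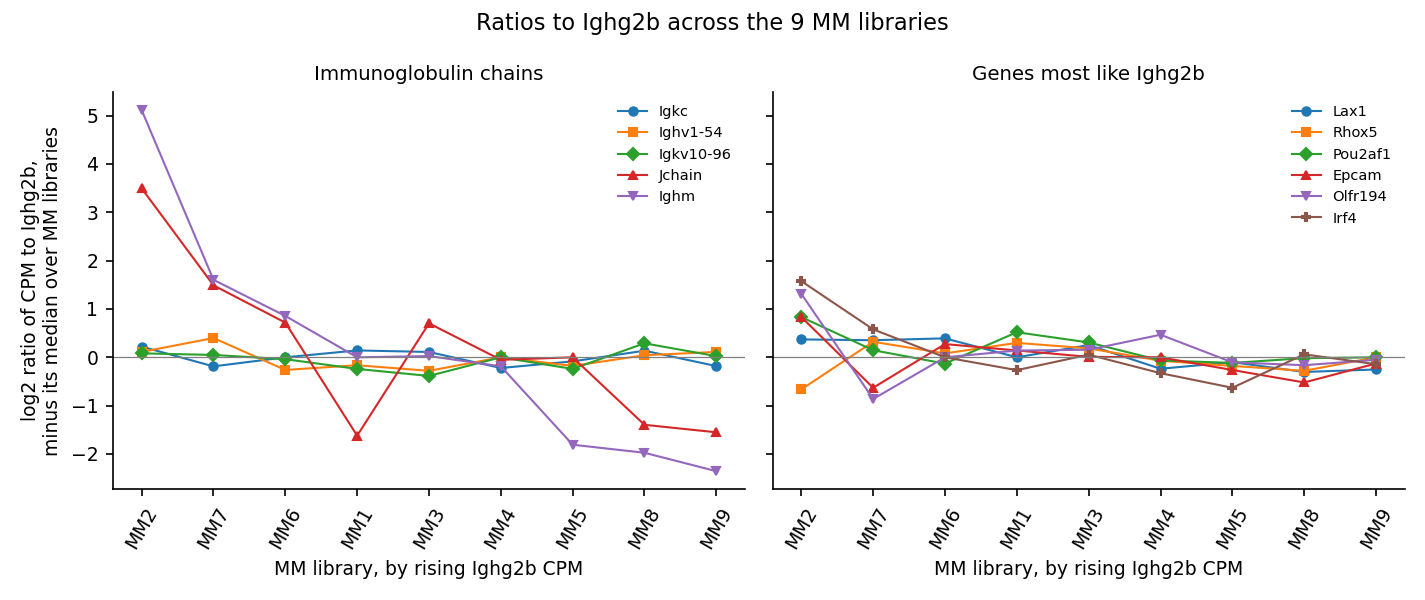
log2 ratio of CPM to Ighg2b, minus its median over MM libraries, in the 9 MM libraries ordered by Ighg2b CPM; the left panel has the other 5 members, the right panel the 6 genes most like Ighg2b. Lines for Igkc, Ighv1-54 and Igkv10-96 stay near 0, while Ighm falls from 5.12 in MM2 to below -2 in MM9 and Jchain scatters.

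The variable genes named here took nearly all variable reads of their chain in MM. Ighv1-54 held a median of 99.61% of the reads over 115 heavy variable genes, from 88.71% of 62 reads in MM2 to 99.72% in MM1 (of 1429 reads) and in MM8 (of 10978). Igkv10-96 held a median of 99.74% over 100 kappa variable genes, from 93.51% of 77 reads in MM2 to 99.89% of 17059 reads in MM8. The remaining heavy variable reads numbered between 2 and 80 per MM library and the remaining kappa variable reads between 3 and 35. Every MM library was thus dominated by the same pair of variable genes, including MM2, where the 95% Wilson intervals were 78.48% to 94.42% for Ighv1-54 and 85.68% to 97.19% for Igkv10-96. Such intervals cover counting error only, since without molecular identifiers several reads can stem from 1 molecule.

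In SHAM the shares split. Ighv1-54 held 80.95% of 84 heavy variable reads in SHAM5 (71.28% to 87.92%) and 90.91% of 88 in SHAM9 (83.07% to 95.32%), and Igkv10-96 held 84.44% of 90 kappa variable reads in SHAM5 (75.57% to 90.5%) and 95.08% of 122 in SHAM9 (89.68% to 97.73%). SHAM1 came next, with 42.11% of 19 heavy reads (23.14% to 63.72%) and 45.45% of 22 kappa reads (26.92% to 65.34%). The other 6 SHAM libraries held at most 5.00% for Ighv1-54 and 12.5% for Igkv10-96. SHAM4 had 60 heavy variable reads spread over 22 genes besides Ighv1-54, and SHAM6 had 53 kappa variable reads spread over 30 genes besides Igkv10-96. Low totals, from 6 to 88 heavy and 17 to 122 kappa reads, limit the SHAM shares.

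**Figure D3:**
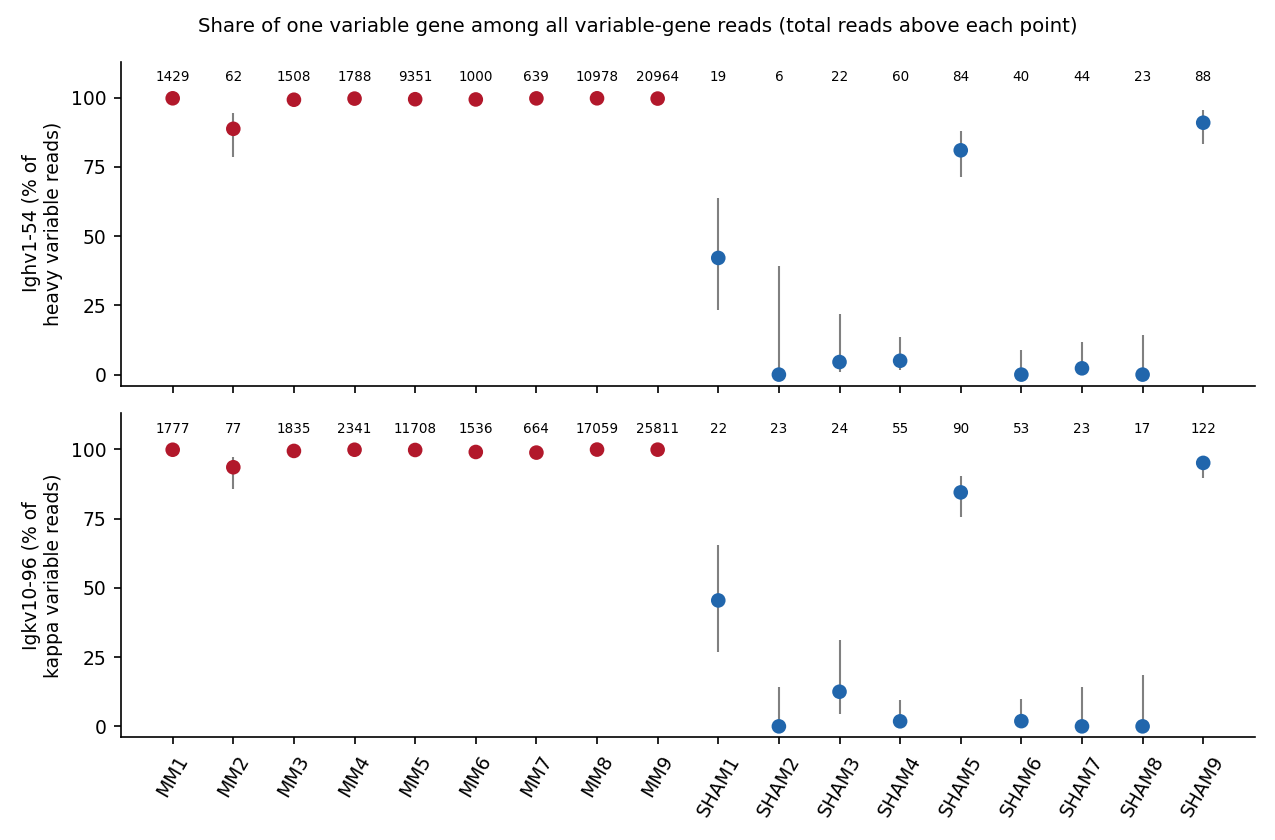
Share of Ighv1-54 among heavy variable reads (top) and of Igkv10-96 among kappa variable reads (bottom) in percent, per library, with 95% Wilson intervals as lines and the number of reads above each point. MM libraries lie between 88.71% and 99.89%, SHAM5 and SHAM9 between 80.95% and 95.08%, SHAM1 at 42.11% and 45.45%, and the other SHAM libraries at 12.5% or less.

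Ighg2b was almost wholly of the secreted form in MM. The secreted transcript held 99.04% ± 0.149 of Ighg2b TPM (SD, n = 9), from 98.67% in MM2 to 99.18% in MM9. Levels of the secreted form ran from 22.9 to 7489 TPM and those of the membrane form from 0.308 to 62.2 TPM. The membrane form had reads in every MM library, fewest in MM2 (8.5) and most in MM9 (1950.3). SHAM5 and SHAM9 had 317.0 and 317.4 reads of Ighg2b, with secreted shares of 98.22% and 99.70%. The remaining SHAM libraries had between 2 and 57.9 reads, too few for a share of the rarer form. Both forms hold the same exons up to the splice site at which the printed capitals begin, so the split rests on reads that reach the bases after it, untranslated ones included.

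Ighm split differently. Its secreted share was 76.1% ± 8.58 in MM (SD, n = 9), from 59.5% in MM6 to 84.0% in MM2, and 63.1% ± 20.6 in SHAM (SD, n = 9), from 24.8% in SHAM8 to 86.3% in SHAM9. Every MM share lay within the SHAM range, and SHAM6, SHAM7 and SHAM8 lay below every MM library. Secreted Ighm was at 43.2 ± 13.2 TPM in MM against 34.2 ± 8.79 TPM in SHAM, and MM9 was the highest library at 75.4 TPM. Membrane Ighm was at 14.00 ± 6.75 TPM in MM against 25.04 ± 26.4 TPM in SHAM. The SHAM values above the MM maximum of 23.5 TPM were SHAM8 at 91.3 TPM and SHAM7 at 37.7 TPM, and only in these 2 of 18 libraries did the membrane form exceed the secreted form.

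**Figure D4:**
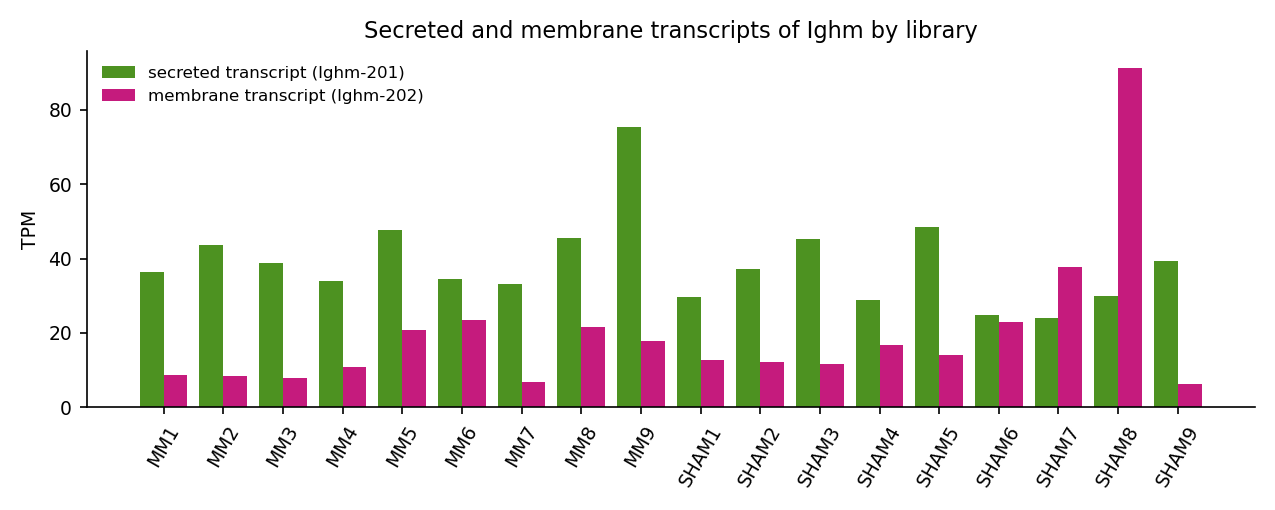
TPM of the secreted and membrane transcripts of Ighm in each library, as bars from 0. The secreted bar is the taller one in all 9 MM and 7 SHAM libraries, and the membrane bar of SHAM8, at 91.3 TPM, is the tallest of all.

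The reads of other immunoglobulin genes were compared between groups as 4 sums that contain no member. Lambda chain genes, the alternative to kappa, were higher in MM: the sum over 7 genes was 12.9 ± 14.6 CPM in MM against 1.46 ± 0.798 CPM in SHAM (± SD, n = 9 each), and 8 of 9 MM libraries exceeded the median of SHAM (2-sided exact permutation p = 0.00452, adjusted over the 4 sums p = 0.0181). MM5 at 36.3, MM9 at 35.4 and MM8 at 22.8 CPM were the highest, the same 3 libraries as for Ighg2b, and MM2 at 0.296 CPM was the lowest of all 18. Relative to Ighg2b the lambda sum was 0.81% to 2.54% of its CPM in MM. SHAM5 and SHAM9 stood at 1.40 and 0.672 CPM. At the MM percentages, their 14.8 and 16.4 CPM of Ighg2b would bring less lambda than the SHAM SD, so no excess could be seen. The lambda difference passed the test without each MM library in turn (adjusted p = 0.000823 to 0.0181) and without MM5, MM8 and MM9 (2.10 CPM, adjusted p = 0.0394). It did not pass by exact permutation when any single SHAM library (adjusted p = 0.0956 to 0.128) or both SHAM5 and SHAM9 (adjusted p = 0.106) were left out. The difference still lay between 11.3 and 11.6 CPM in those fits. Where SHAM is the smaller group, the 2-sided test also counts assignments that place MM5, MM8 and MM9 in the smaller group. There each weighs more in the mean, which raises p. Without an MM library, MM itself is the smaller group, so the p-values of the 2 kinds of fit are not comparable. How much of the loss this makes was not tested.

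The lambda reads came mainly from 3 genes. The constant gene Iglc3 averaged 6.39 ± 7.15 CPM in MM against 0.228 ± 0.156 CPM in SHAM, and the constant gene Iglc2 4.75 ± 5.58 against 0.575 ± 0.455 CPM (SD, n = 9 each). The variable gene Iglv3 averaged 1.18 ± 1.51 CPM in MM against 0.0272 ± 0.0259 CPM in SHAM. Iglc2 and Iglc3 share stretches of 31 bases, so reads can be divided between them. Iglc1, Iglv1 and Iglv2 averaged 0.419 CPM or less in both groups, and Iglc4 was at 0 in all libraries. Of these genes Iglc2 alone among the lambda constant genes passed the filter on low counts for the test over all genes, where edgeR gave a log2 fold change of 3.03 ± 0.76 (SE) with adjusted p = 0.0410. That call was lost without MM5, MM8 and MM9 (log2 fold change 0.97, adjusted p = 0.626), without SHAM5 and SHAM9 (adjusted p = 0.147), and in 11 of 18 fits with 1 library left out, those without MM5, MM8, MM9 or a SHAM library other than SHAM6 (edgeR adjusted p = 0.0142 to 0.098 over the 18).

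The other 3 sums did not pass. Heavy variable genes other than Ighv1-54 (114 genes) summed to 1.12 ± 1.38 CPM in MM against 1.24 ± 0.862 CPM in SHAM (± SD, n = 9 each; p = 0.83 by exact permutation, adjusted to 0.83). Kappa variable genes other than Igkv10-96 (99 genes) summed to 0.703 ± 0.577 CPM in MM against 1.22 ± 0.811 CPM in SHAM (p = 0.143 by exact permutation, adjusted to 0.192). Heavy constant genes other than Ighg2b and Ighm (6 genes) summed to 5.96 ± 1.25 CPM in MM against 7.02 ± 1.64 CPM in SHAM (p = 0.144 by exact permutation, adjusted to 0.192). In the heavy and kappa variable sums MM5, MM8 and MM9 were again the highest MM libraries. Without these 3 the differences, at -0.93 and -0.85 CPM, passed as lower in MM (exact permutation, both adjusted p = 0.0392). Leaving out the highest libraries of 1 group lowers its mean in advance, so no lower level in MM is read from this.

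**Figure D5:**
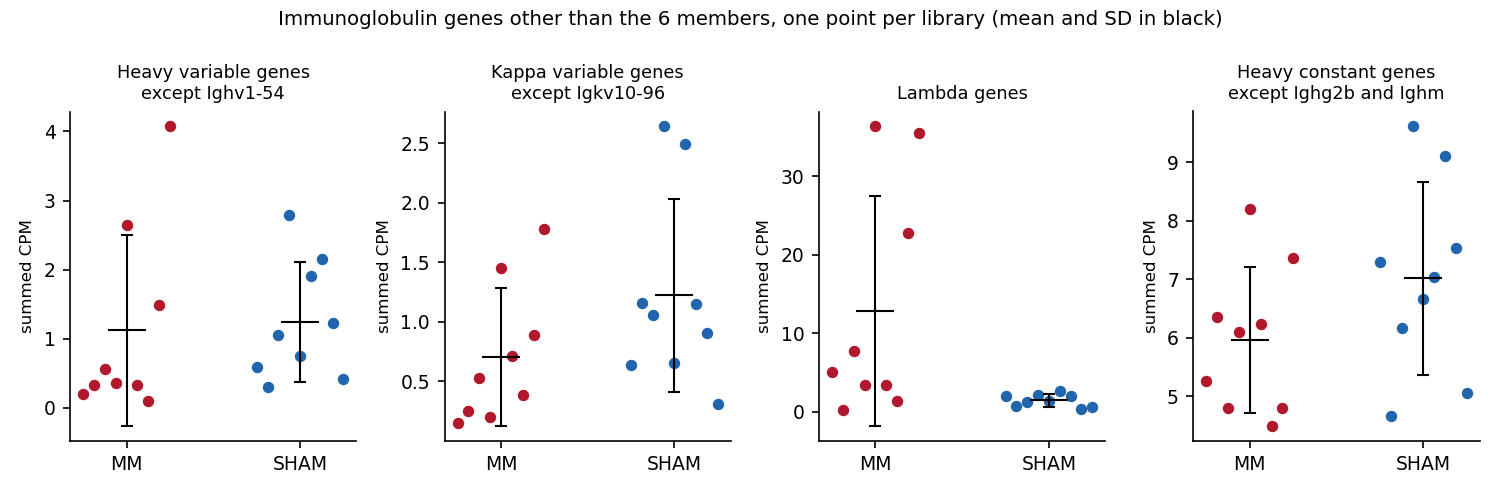
Summed CPM of immunoglobulin genes other than the members in 4 panels, each point 1 library, with mean and SD in black and a separate linear axis per panel. In the lambda panel 3 MM libraries lie between 22.8 and 36.3 CPM and all SHAM libraries at 2.635 CPM or less, while the groups overlap in the other 3 panels.

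By gene, the variable reads outside the named pair were few. In MM the first heavy gene was Ighv1-12, at 0.666 ± 0.984 CPM against 0.0104 ± 0.0310 CPM in SHAM, with reads in 8 of 9 MM libraries and 1 of 9 SHAM libraries. It amounted to 0.257% of Ighv1-54 and shared 2 of its 347 stretches of 31 bases. The heavy variable sum without Ighv1-12, a choice made after seeing these values, differed by -0.78 CPM between MM and SHAM (exact permutation, adjusted p = 0.0657). Next in MM came Ighv1-55, Ighv1-63, Ighv1-26 and Ighv3-6, none above 0.0641 CPM. In SHAM the first were Ighv1-75, Ighv1-53, Ighv1-72, Ighv1-55 and Ighv1-50, from 0.0763 to 0.136 CPM. Among kappa genes Igkv5-43 led in both groups, at 0.144 ± 0.126 CPM in MM against 0.139 ± 0.119 CPM in SHAM. Igkv3-2 averaged 0.137 ± 0.190 CPM in MM against 0.00535 ± 0.0160 CPM in SHAM and shares no such stretch with Igkv10-96. Igkv10-94 and Igkv10-95, which share 148 and 72 stretches with Igkv10-96, had reads in 3 and 4 MM libraries and none in SHAM. The fifth MM gene was Igkv1-117, and the SHAM list went on with Igkv4-59, Igkv1-110, Igkv1-135 and Igkv4-53, none above 0.0962 CPM.

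Of the 10 other constant genes, 3 had enough reads for the test and 1 was higher, Iglc2, whose call is the one lost in 11 of 18 fits as given above. Their median log2 fold change was -0.04, against -0.0042 over all genes tested. Ighg2c, the IgG2c heavy chain, averaged 4.67 ± 0.574 CPM in MM against 4.81 ± 0.867 CPM in SHAM (log2 fold change -0.04 ± 0.11 SE, edgeR adjusted p = 0.847), and Igha, the IgA heavy chain, 0.855 ± 0.843 against 1.33 ± 0.978 CPM (edgeR adjusted p = 0.509). The IgD gene Ighd averaged 0.327 ± 0.408 CPM in MM against 0.836 ± 0.574 CPM in SHAM. Ighg1, Ighg3 and Ighe stayed at or under 0.0579 CPM on average in both groups.

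Genes whose products work with immunoglobulin chains were counted in the same test. Of 9 genes for B cell receptor partners, surrogate light chains and rearrangement, 2 were tested (median log2 fold change 0.73), and 1 was lower: Cd79a, a signalling chain of the B cell receptor, at 2.17 ± 0.633 CPM in MM against 3.94 ± 1.80 CPM in SHAM (edgeR adjusted p = 0.0490). Its partner Cd79b averaged 6.60 ± 8.05 CPM in MM against 1.32 ± 0.934 CPM in SHAM (log2 fold change 2.31 ± 0.70 SE) and did not pass (edgeR adjusted p = 0.0730). The 2 chains, which pair in the receptor, thus stood on opposite sides of 0. The Cd79a call was lost in 15 of 18 fits with 1 library left out, those that left out MM1, MM2 and MM5 being the exceptions (adjusted p = 0.0486 to 0.101).

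Of 16 genes for folding and assembly of immunoglobulins in the endoplasmic reticulum, 15 were tested, 2 were higher, 0 lower and 13 did not pass. Over all genes tested 2.75% were higher. The median log2 fold change was 0.34, against -0.0042 over all genes tested. It was positive for 14 of the 15, and 11 had an unadjusted edgeR p under 0.05. Fkbp11, a prolyl isomerase of secretory cells, averaged 2.23 ± 2.15 CPM in MM against 0.543 ± 0.141 CPM in SHAM (log2 fold change 2.02 ± 0.46 SE, edgeR adjusted p = 0.0267). Pdia4, a disulfide isomerase, was at 88.7 ± 63.1 and 40.6 ± 5.10 CPM (log2 fold change 1.13 ± 0.30 SE, edgeR adjusted p = 0.0484). Both calls were lost without MM5, MM8 and MM9 (log2 fold changes 0.82 and 0.30), without SHAM5 and SHAM9, and in 10 and 11 of 18 fits with 1 library left out. Those were the fits without MM5, MM8 or MM9 and without any SHAM library but SHAM6, or for Fkbp11 any but SHAM4 and SHAM6. Of 13 genes for heavy chain poly(A) site choice and transcript processing, which bear on secreted against membrane forms, 12 were tested and 0 passed edgeR's test, with 2 at an unadjusted p under 0.05 and 0 by DESeq2. Those 2 were Hnrnpf, at 134.6 ± 32.9 CPM in MM against 108.0 ± 8.24 CPM in SHAM (edgeR adjusted p = 0.111), and Hnrnpll, at 38.1 ± 4.33 and 35.0 ± 1.36 CPM (edgeR adjusted p = 0.207). Eaf2, an elongation factor partner noticed after its values were seen, did not pass the filter on low counts, so it was not tested, and averaged 5.41 ± 6.90 CPM in MM against 0.291 ± 0.124 CPM in SHAM.

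Fc receptors bind the constant part of antibodies. Of 12 genes for Fc receptors and immunoglobulin transport, 9 were tested, 4 were higher, 0 lower and 5 did not pass. The median log2 fold change was 1.24. Over all genes tested 2.75% were higher and that median was -0.0042. Fcgr4, a receptor for IgG2 antibodies on myeloid cells, averaged 3.89 ± 3.54 CPM in MM against 0.437 ± 0.143 CPM in SHAM (log2 fold change 3.13 ± 0.51 SE, edgeR adjusted p = 0.00711). Its call held in all 18 fits with 1 library left out and without MM5, MM8 and MM9, and was lost without SHAM5 and SHAM9 (edgeR adjusted p = 0.0518). Fcgr2b, the inhibitory IgG receptor, was at 22.03 ± 22.4 and 4.86 ± 1.26 CPM (edgeR adjusted p = 0.0240), and Fcgr1, the high-affinity IgG receptor, at 6.13 ± 6.38 and 1.257 ± 0.460 CPM (edgeR adjusted p = 0.0249). The fourth was Fcer1g, the signalling chain that activating Fc receptors share, at 18.8 ± 14.8 and 6.64 ± 3.001 CPM (edgeR adjusted p = 0.0389). Without MM5, MM8 and MM9 their log2 fold changes were 0.87 for Fcgr2b, 0.99 for Fcgr1 and 0.59 for Fcer1g, and none of these 3 passed. With 1 library left out, the Fcgr2b call was lost without MM5, SHAM1, SHAM7 or SHAM8, and those of Fcgr1 and Fcer1g in 9 and 11 of 18 fits, which left out MM5, MM8, MM9 or a SHAM library other than SHAM6 (for Fcgr1 also other than SHAM4 and SHAM5).

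Marker lists moved as follows, where 2.75% of all genes tested were higher in MM and 0.241% lower. Of 8 plasma and myeloma cell markers 6 were tested and 5 were higher, and their summed level was 112 to 731 CPM in MM and 86.2 to 133 CPM in SHAM. Of 10 B cell markers 8 were tested, 0 were higher and 2 were lower, with sums of 5.12 to 32.2 CPM in MM (median 7.74) and 7.27 to 24.7 CPM in SHAM (median 12.01). All 5 red blood cell markers were lower, with sums of 50.99 to 256 CPM in MM and 236 to 2970.0 CPM in SHAM. Of the plasma cell markers, Sdc1 passed narrowly (edgeR adjusted p = 0.0490). Without MM5, MM8 and MM9, calls over all genes fell from 433 higher and 38 lower to 53 and 7. Marker calls are not given for such fits. In SHAM5 and SHAM9 the plasma cell sums were 97.5 and 90.1 CPM, close to the SHAM median of 99.2 CPM, and in MM2 the sum was 112 CPM. At the low Ighg2b of these libraries, plasma cell RNA in MM proportions would be lost in the SHAM spread. The sums therefore cannot show its absence. Tnfrsf17 and Mzb1 were the plasma cell markers not tested. Tnfrsf17 lay at the floor of 3 counts or below, with at most 0.142 CPM and means of 0.0426 CPM in MM and 0.0439 CPM in SHAM. The part of these cell types in the immunoglobulin values was not tested.

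The genes most like Ighg2b were sought among 11614 genes that are no immunoglobulin gene and averaged at least 5 CPM in MM. Likeness was the SD, over the 9 MM libraries, of the log2 CPM ratio to Ighg2b, which had a median of 2.62 over those genes. The 6 lowest were Lax1 (0.291), Rhox5 (0.312), Pou2af1 (0.33), Epcam (0.438), Olfr194 (0.579) and Irf4 (0.645). For comparison, the SD was 0.167 for Igkc, 0.205 for Igkv10-96, 0.22 for Ighv1-54, 1.66 for Jchain and 2.29 for Ighm. All these genes were measured in the same 9 libraries, MM5, MM8 and MM9 included, so the SDs are not independent. Lax1, a lymphocyte adaptor, was at 13.2 ± 16.1 CPM in MM, and the homeobox gene Rhox5 at 14.5 ± 19.0 CPM. Pou2af1, a B cell coactivator, was at 32.7 ± 41.4 CPM, the adhesion molecule Epcam at 23.5 ± 30.6 CPM, the odorant receptor gene Olfr194 at 5.55 ± 7.12 CPM and Irf4, a transcription factor of plasma cells, at 33.2 ± 43.6 CPM (SD, n = 9). None of them exceeded 1.68 CPM in any SHAM library. In SHAM5 they lay between 0.0466 and 1.07 CPM, in SHAM9 between 0.155 and 1.09 CPM and in MM2 between 0 and 1.03 CPM, against 14.8, 16.4 and 11.7 CPM of Ighg2b. Ighg2b averaged 1156 CPM in MM, so in MM proportions these libraries would hold only low levels of these genes. The highest SHAM value was that of SHAM5 for Epcam (0.372 CPM) and of SHAM9 for Rhox5 (0.310 CPM) and Olfr194 (0.155 CPM). For Lax1, Pou2af1 and Irf4 it lay in another SHAM library, at 0.479, 1.68 and 1.63 CPM. Such values rest on few reads, and whether these genes accompany Ighg2b in SHAM5 and SHAM9 was not tested.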

How the data were processed

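RNA of whole lumbar ganglia was sequenced on DNBSEQ instruments, 1 library for each of 18 mice, per the labels. The authors quantified transcripts with Salmon 1.5.2 on build GRCm39, per the submitters' processing notes; the index and options are not given in the sources used here. The deposited files per library hold an estimated count of reads per transcript, which need not be whole, and TPM values, which Salmon scaled by effective length. A deposited gene table for the whole series gives normalized signal from DESeq2, per the submitters' processing notes, and served only as an alternative scale.

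Estimated counts were summed per gene through GENCODE M21, which annotates the older build GRCm38, so no genome positions are given; 3620 of 137562 transcripts had no gene there (0.85% to 1.339% of reads). Sums were rounded, filtered with filterByExpr, normalized with TMM and fitted on group alone by edgeR 4.0.16 (R 4.3.3, robust quasi-likelihood fit), where Benjamini-Hochberg adjusted p under 0.05 was the threshold; the biological coefficient of variation was 0.258. DESeq2 1.42.0 was an alternative. CPM values are TMM-scaled and log2 ratios to Ighg2b used a prior count of 2. Variable reads were summed over annotated genes without pseudogenes, and shares carry 95% Wilson intervals. The 4 sums were tested by 2-sided exact permutation over 48620 assignments (smallest p 4.11e-05), adjusted over the 4. The tests were tried on simulated data. Precision follows from 19014161 to 21538262 estimated reads per library, where 3 counts equal 0.14 to 0.16 CPM. Tests and figures used matplotlib 3.10.9, scipy 1.17.1, pandas 2.3.3 and numpy 2.4.6 in Python 3.11.15.

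The members, gene lists and alternatives were chosen with earlier results of these data known. Named were the members, of each list up to 3 genes per direction with the lowest p among those that passed (or the 2 lowest p if none did) and every other constant gene, the 5 highest other variable genes per group and chain, and the 6 genes most like Ighg2b; Cd79b was added after its value was seen. Same-numbered libraries did not deviate together (correlations from -0.32 to 0.263, 2 of 9 best with their own number), so the numbers were not taken as pairs. Alternatives were other size factors, no filter, DESeq2, TPM, a log scale, the deposited table, a replicate block, each library left out, and both MM5, MM8 and MM9 and SHAM5 and SHAM9 left out. Sequences were read from GENCODE M21 transcripts, whose lengths matched those in the files for all 9 member transcripts.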

Additional observations from a re-analysis of the deposited data

Results flagged for a closer look

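Among 20 groups of values examined for a sample far from the others, 1 held such a sample, and chance alone gives about 1 in 20. SHAM8 had 111 CPM of Ighm, whereas the next SHAM library, SHAM7, had 49.7 CPM and the SHAM median was 37.7 CPM. In SHAM8 the membrane transcript of Ighm stood at 91.3 TPM and the secreted transcript at 30.03 TPM, and in SHAM7 they stood at 37.7 and 24.1 TPM. SHAM8 held 23 heavy variable reads over 9 genes and 17 kappa variable reads over 7 genes, none of them from Ighv1-54 or Igkv10-96. Its Igkc was 3.02 CPM, close to the SHAM median of 3.18 CPM. The summed level of 10 B cell markers in SHAM8 was 7.27 CPM, the lowest of the SHAM libraries, whose median was 12.01 CPM. Without SHAM8 the log2 ratio of MM to SHAM means of Ighm was 0.24, against -0.03 with it.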

How the results depend on the processing

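All 4 antibody genes and Jchain kept a positive log2 ratio of MM to SHAM means under every scale and omission tried, and Ighm stayed between -0.39 and 0.24. The lambda difference was 11.42 CPM under the replicate block (adjusted p = 0.0781) and 11.30 CPM without SHAM5 and SHAM9 (adjusted p = 0.106), both no longer past the threshold, and 8.49 to 12.99 CPM with 1 library left out. Without MM5, MM8 and MM9 the heavy and kappa variable differences became -0.9285 and -0.8537 CPM and passed. Those libraries are the highest of MM in both sums, so their omission lowers the MM mean in advance and nothing is read from it. With 1 library left out the heavy variable difference ran from -0.4906 to 0.07182 CPM, and its sign turned without MM7 (0.006467) or SHAM4 (0.07182). Genes higher and lower in MM numbered 7 and 1 under the replicate block, 53 and 7 without MM5, MM8 and MM9, 19 and 5 without SHAM5 and SHAM9, and 945 and 256 by DESeq2; with no filter 20 were lower. With 1 library left out they ran from 75 to 891 and from 9 to 139. The lists of other constant genes, receptor partners (lower), folding genes and Fc receptors gave 0 calls under the block and without SHAM5 and SHAM9; without MM5, MM8 and MM9 they gave 0, 0, 0 and 1. With no filter the counts were 0 lower for receptor partners, 1 higher for folding, 1 higher for poly(A) site choice and 1 lower for Fc receptors, and DESeq2 called 1 receptor partner higher. With 1 library left out the calls ran from 0 to 1 for other constant genes, receptor partners (either direction) and poly(A) site choice, 0 to 2 for folding and 1 to 5 for Fc receptors. The causes of these changes were not tested, except that fewer libraries enter when some are left out. The labels do not say whether same-numbered libraries are pairs, and most of them did not deviate together. Whether the block removes a real pairing or only costs precision was not tested. Depth limits the SHAM variable shares, which rest on 6 to 122 reads.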
